A study of Homo sapiens with 9 samples.

Results

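The genes described here encode the DNA replication machinery and the regulators of the step from G1 into S phase. They are 50 genes chosen by name (gene symbol) from a table of 60612 genes, and all 50 passed the filter on low values. The RNA came from cultures of the human prostate cancer line VCaP, transfected for 4 days with a control siRNA (genotype given as KMT2C normal) or with 1 of 2 siRNAs against KMT2C (genotype given as KMT2C deficiency). KMT2C encodes a histone H3 lysine 4 methyltransferase. There were 3 libraries per group, and all groups came from this 1 line. The sources used here do not give the siRNA sequences, and they do not say whether the libraries of a group were separate cultures, so the p-values measure only the spread between these libraries, which may be technical.

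In G1, the origin recognition complex, CDC6 and CDT1 load the MCM2-7 helicase onto DNA. Cyclin E with CDK2 and the E2F transcription factors then drive entry into S phase, where CDC45 and the GINS complex switch the helicase on and polymerases alpha, delta and epsilon copy the DNA. E2F factors bind the promoters of many of these genes, and the genes are known to be transcribed together in cycling cells.

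The libraries held 58462215 to 70726213 expected counts, and single members had between 338 counts (CCNE1) and 26438 counts (MCM7) in a library. The targeted gene, KMT2C, had 13.7, 12.1 and 12.9 FPKM (a level corrected for gene length and sequencing depth) under control siRNA. It was at 1.54, 1.80 and 2.28 FPKM under siRNA 1 and at 1.72, 1.64 and 1.73 FPKM under siRNA 2. The groups did not overlap, and the exact two-sided permutation test over libraries gave p = 0.1 for each siRNA, the smallest value that 3 against 3 allows. All 10 VCaP and prostate epithelial markers checked were expressed, among them the epithelial adhesion gene EPCAM at 99.2 FPKM in control cells. By the test described below 6 of the 10 fell under siRNA 1 and 8 of the 10 under siRNA 2. Over all genes tested, 20.5% and 24.9% fell. Of 16 markers of blood, endothelial, stromal and red cells 1 passed the filter on low values, the stromal gene LUM, with 1.44, 1.27 and 1.02 FPKM in control libraries, 0.82, 0.61 and 0.67 under siRNA 1 and 10.2, 7.04 and 11.99 under siRNA 2. The T cell marker CD3E was listed at 0.0001 FPKM in all 9 libraries, the value the table gives to genes without counts, and the summed level of the 16 markers was 1.742 to 2.972 FPKM in control libraries, 0.9772 to 1.38 under siRNA 1 and 7.623 to 12.74 under siRNA 2.

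In control cells the members had a median level per length of 10.7 FPKM. The sliding clamp gene PCNA was highest at 132.6 FPKM, followed by the helicase subunit gene MCM7 at 59.7, and the GINS subunit gene GINS4 was lowest at 1.37. By FPKM, subunits of 1 complex were not at 1 level. FPKM between genes depends on the length taken for each gene, and the sources used here do not give the annotation or the counting tool. The MCM2-7 genes ran in the order MCM7, MCM4, MCM3, MCM2, MCM6 and MCM5 over a 5.26-fold range, and in that order MCM3 and MCM2 were the neighbours whose control libraries overlapped. Within GINS, GINS1 lay at 15.9 FPKM and the other 3 at 1.37 to 2.81 FPKM. RPA1 and RPA2, subunits of the single-strand binding protein RPA, were at 35.5 and 30.8 FPKM, and RPA3 was at 1.92. POLD2, an accessory subunit of polymerase delta, was at 40.9 FPKM, against 6.96 for the catalytic subunit gene POLD1 and 6.17 for POLD3, whose libraries overlapped with those of POLD1.

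The members separated the 2 siRNAs. With siRNA 1, 33 of the 50 were higher than under siRNA 2 and 4 were lower (adjusted p under 0.05 in edgeR's quasi-likelihood test, adjusted by Benjamini-Hochberg over 12830 genes). Of all genes tested, 20.6% were higher and 18.9% lower in that comparison, 39.5% in all. The median difference was 0.41 on the log2 scale over the members and 0.00 over all genes tested. The 4 lower members were the transcription factor gene E2F3, the primase gene PRIM1, the polymerase epsilon gene POLE and RPA1. In 33 members every siRNA 1 library lay above every siRNA 2 library in FPKM, and in 4 every one lay below. The share of all genes tested with such a separation was not counted, so these 2 counts have no background. Those 33 are not quite the ones the test called, since GINS1 is among them without passing the test and TIMELESS passed it with overlapping libraries.

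Against the control cells, siRNA 1 and siRNA 2 gave different counts. Both comparisons use the same 3 control libraries and are not independent of each other. With siRNA 1, 15 members rose and 2 fell, where 21.2% of all genes tested rose and 20.5% fell (41.7% in all). The median was 0.15 against 0.01 over all genes tested. With siRNA 2, 3 members rose and 23 fell, where 24.4% of all genes tested rose and 24.9% fell (49.3% in all). The median was -0.18 against 0.02. Summed over the members, the control libraries held 853.4, 860.9 and 802.5 FPKM. The sums were 984.5, 947.2 and 931.4 FPKM under siRNA 1 and 762.6, 768.3 and 760.6 FPKM under siRNA 2, so the groups did not overlap. In bulk RNA, fewer cells at a stage of the cell cycle and less RNA per cell cannot be told apart.

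The counts against control moved with single libraries and with the scaling. Without control replicate 3, or without siRNA 1 replicate 3, 9 members rather than 15 rose under siRNA 1. Without siRNA 1 replicate 3, 11 rather than 17 members passed the test under siRNA 1, and 5 rather than 3 rose under siRNA 2. Scaling the libraries by their upper quartile gave 7 rises and 19 falls under siRNA 2, where MCM7, CDC45, POLD1 and POLD2 were added to the rises, and it moved the median of all genes tested to 0.12 and that of the members to -0.09. Mitochondrial genes took 10.2% to 11.1% of the counts in control libraries, 8.25% to 9.61% under siRNA 1 and 12% to 12.2% under siRNA 2, and with these genes left out 37 members differed between the siRNAs, as with them. The level of LUM moved under siRNA 2 as well, and its part in the result was not tested.

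**Figure D1:**
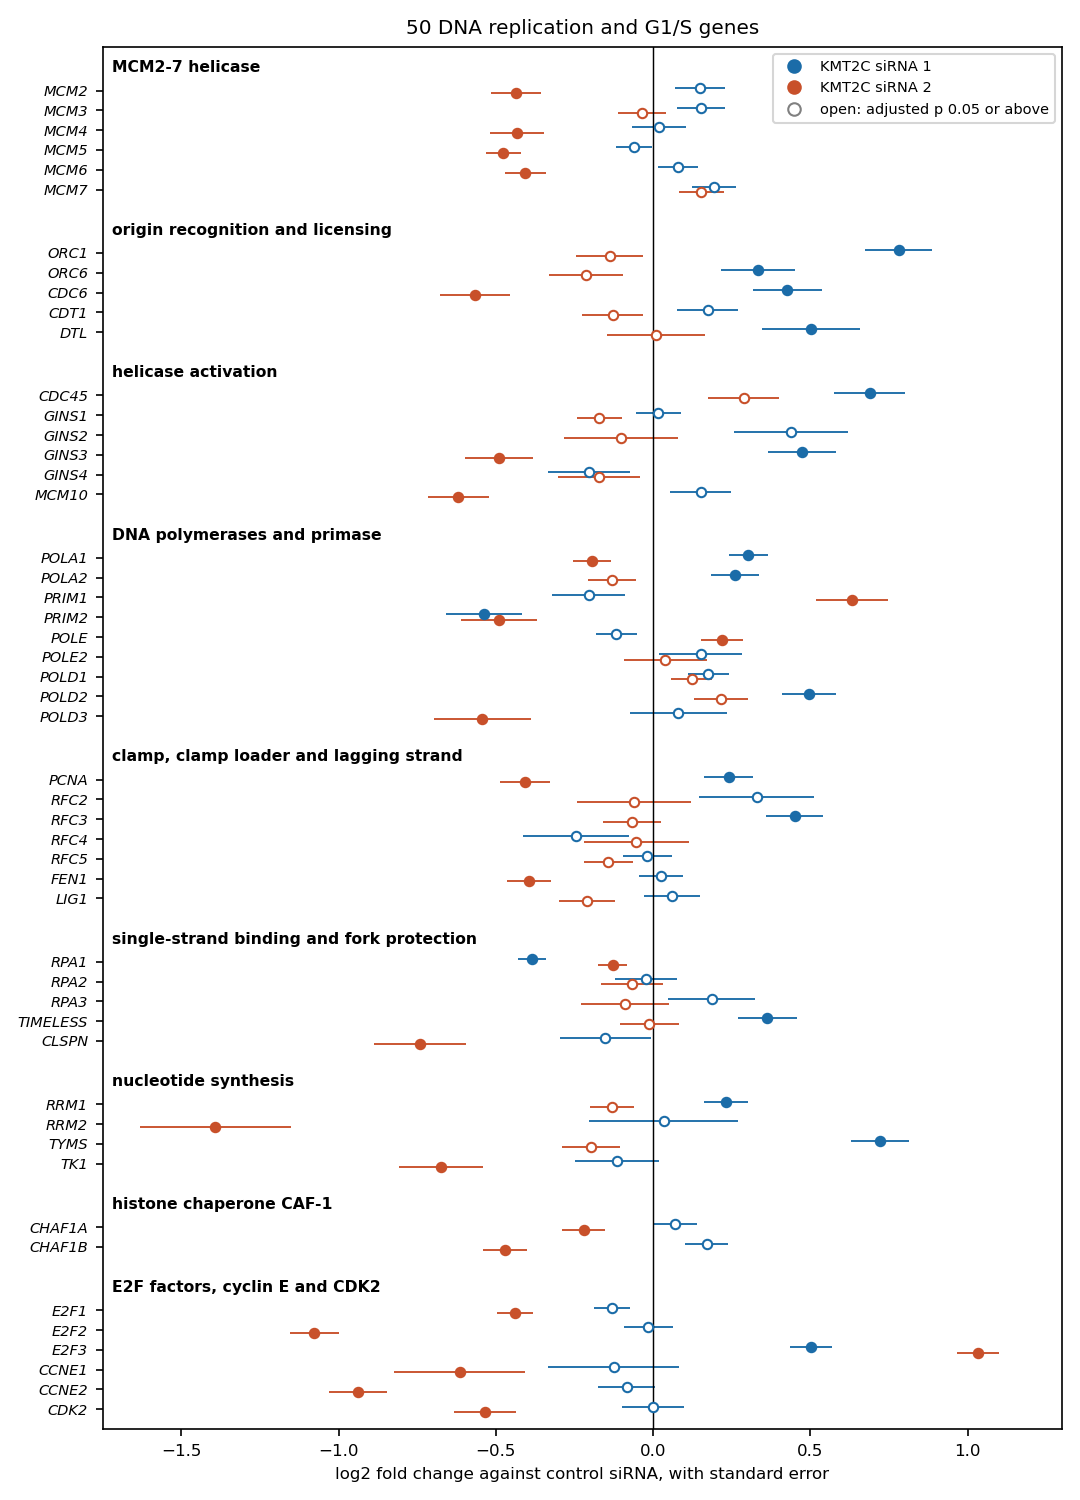
Log2 fold change of each of the 50 genes against control siRNA for KMT2C siRNA 1 (blue) and KMT2C siRNA 2 (red), with the standard error as a line, grouped by role; open circles have an adjusted p of 0.05 or above. Most blue points lie to the right of the red point of the same gene, with E2F3, PRIM1, POLE and RPA1 the 4 genes that differed the other way.

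**Figure D2:**
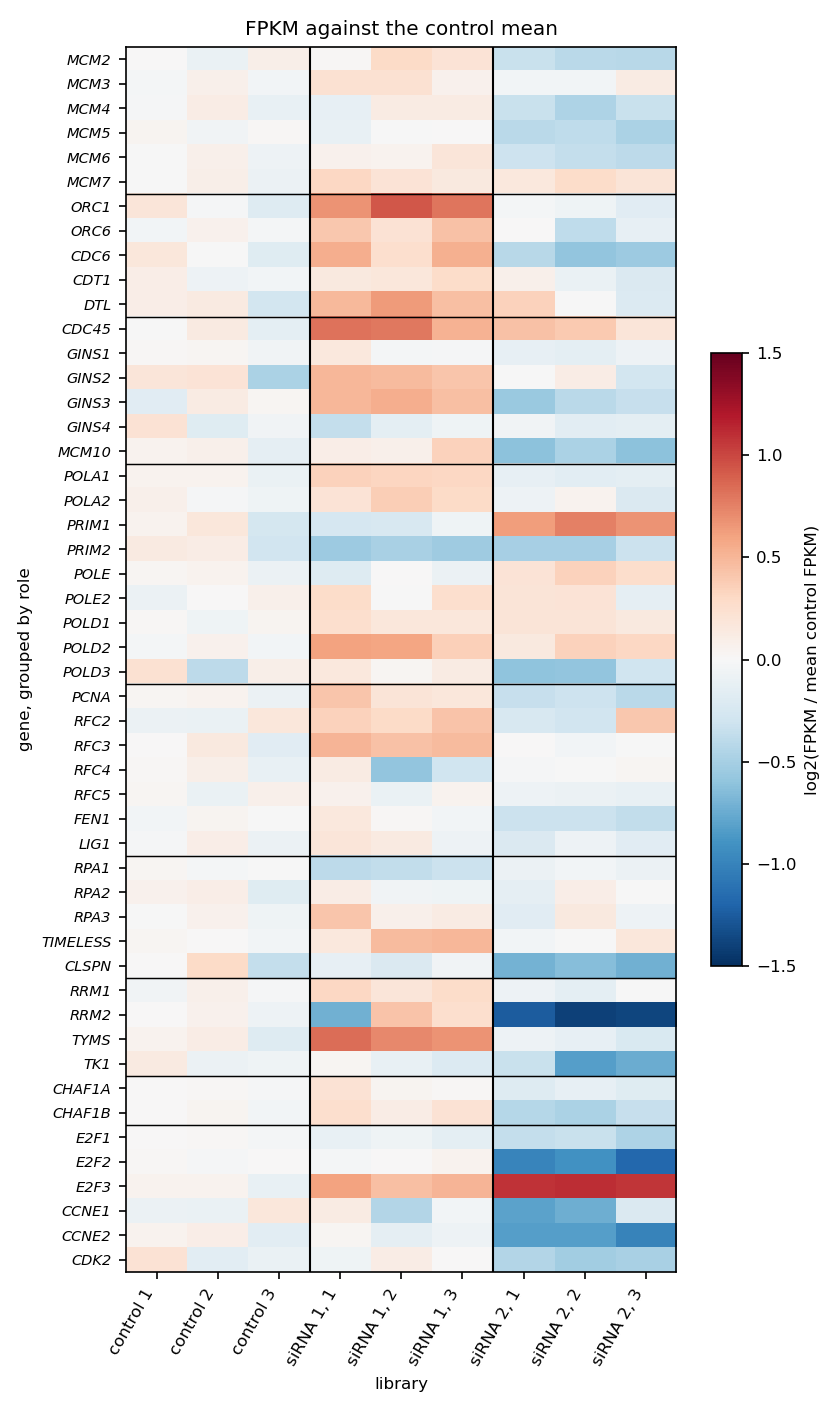
FPKM of the 50 genes (rows, grouped by role) in each of the 9 libraries (columns), as the log2 ratio to the mean of the 3 control libraries; red is above and blue below the control mean. The siRNA 1 columns are mostly red and the siRNA 2 columns mostly blue, apart from rows such as E2F3 and PRIM1.

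Among the regulators of S phase entry, the E2F genes moved apart. E2F1, E2F2 and E2F3 encode the activating E2F factors. E2F2 (ENSG00000007968, GRCh38 chromosome 1, 23506438 to 23531233, minus strand) was at 7.41, 7.25 and 7.33 FPKM in control libraries, 7.17, 7.35 and 7.62 under siRNA 1 and 3.69, 3.91 and 3.24 under siRNA 2. It fell by 1.08 ± 0.08 on the log2 scale under siRNA 2 (± SE here and below, 2.11-fold, adjusted p = 1.07e-05), and its value for siRNA 1 was -0.01 ± 0.08 (adjusted p = 0.893). The siRNA 2 libraries were low, and the other 2 groups overlapped. E2F3 (ENSG00000112242, GRCh38 chromosome 6, 20401879 to 20493714, plus strand) was at 14.7, 14.7 and 13.2 FPKM in control libraries, 21.6, 19.4 and 20.2 under siRNA 1 and 29.99, 30.6 and 29.7 under siRNA 2. It rose by 0.50 ± 0.07 under siRNA 1 (adjusted p = 0.000506) and by 1.03 ± 0.07 under siRNA 2 (adjusted p = 5.86e-06), and the 3 groups did not overlap. The difference between the siRNAs was -0.53 ± 0.07 (adjusted p = 0.000373). E2F1 was at 26.4, 26.6 and 25.8 FPKM in control libraries, 24.3, 25.1 and 23.7 under siRNA 1 and 20.5, 20.9 and 19.1 under siRNA 2. Its siRNA 1 libraries lay just below the controls (-0.13 ± 0.06, adjusted p = 0.0993), and under siRNA 2 it fell by 0.44 ± 0.06 (adjusted p = 0.000283). The order of the 3 genes by level changed with these values: E2F1 was highest in control cells and under siRNA 1, and E2F3 was highest under siRNA 2.

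The cyclin E genes and CDK2, their kinase partner, were lower under siRNA 2. CCNE2, cyclin E2, was at 13.5, 13.9 and 11.7 FPKM in control libraries, 13.3, 11.9 and 12.3 under siRNA 1 and 7.38, 7.33 and 6.497 under siRNA 2. It fell by 0.94 ± 0.09 under siRNA 2 (1.92-fold, adjusted p = 5.54e-05), with -0.08 ± 0.09 for siRNA 1 (adjusted p = 0.498). The siRNA 2 libraries were all below the other 6. Of the exon bases of CCNE2 37% are shared with INTS8 on the other strand, and the sources used here do not say whether the counting used strand. INTS8 had values of -0.05 and -0.14 for siRNA 1 and siRNA 2. CCNE1, cyclin E1, was at 2.94, 2.92 and 3.51 FPKM in control libraries, 3.41, 2.299 and 3.03 under siRNA 1 and 1.79, 1.89 and 2.68 under siRNA 2. Its fall of 0.61 ± 0.21 under siRNA 2 (adjusted p = 0.0372) rests on few libraries: without control replicate 1, 2 or 3 or siRNA 2 replicate 1 or 2 the value was -0.67 to -0.51, with an adjusted p of 0.057 to 0.117, and it also missed the threshold with upper-quartile scaling or no filter (-0.65 to -0.52). CDK2 was at 10.4, 8.03 and 8.35 FPKM in control libraries, 8.58, 9.66 and 8.99 under siRNA 1 and 6.58, 6.22 and 6.39 under siRNA 2. It fell by 0.54 ± 0.10 under siRNA 2 (adjusted p = 0.00202), with a value for siRNA 1 of -0.00 ± 0.10, and its siRNA 2 libraries were the 3 lowest.

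**Figure D3:**
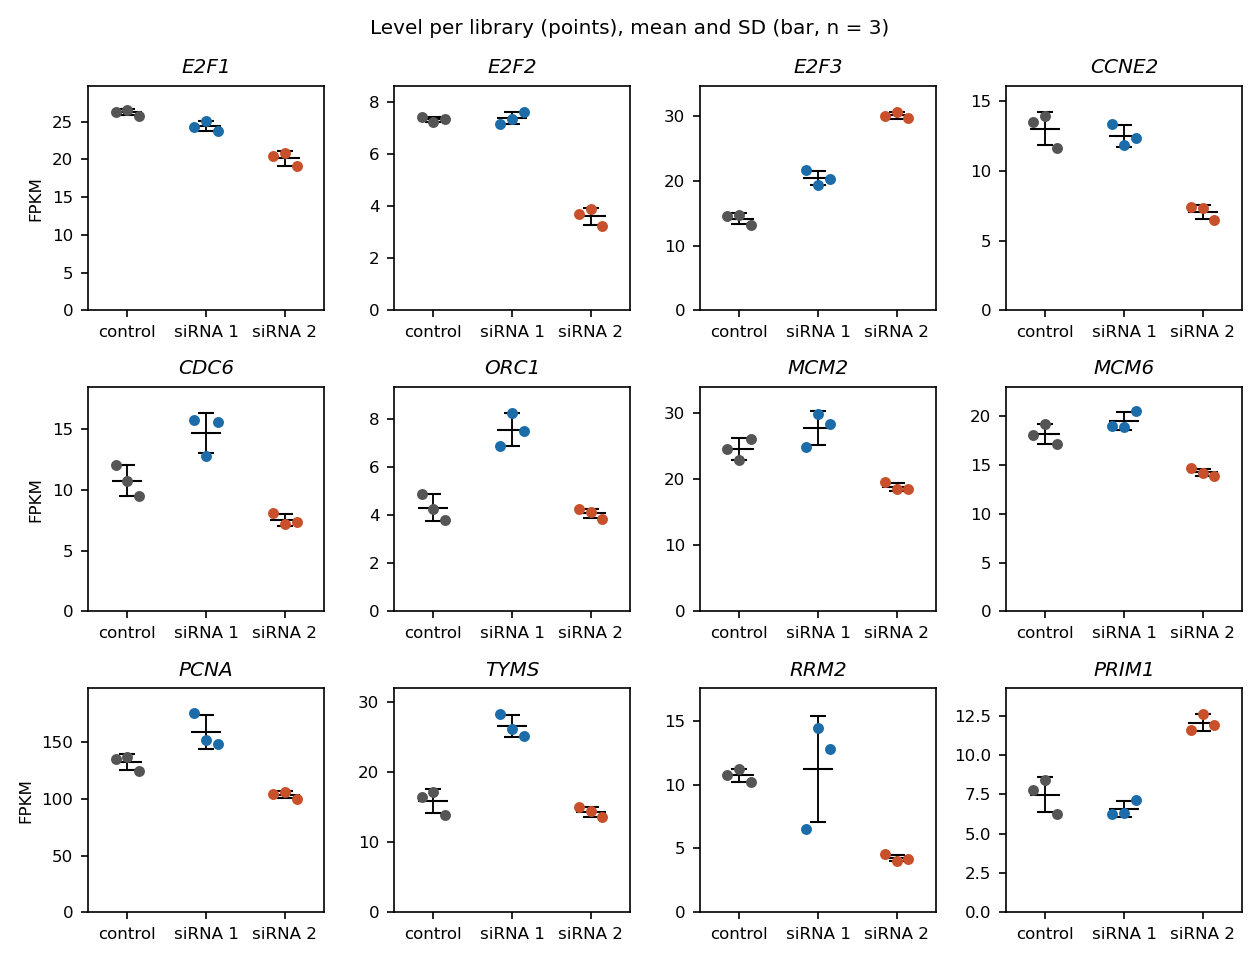
FPKM of 12 of the genes in each library (points) with the group mean and SD (bars, n = 3), for control siRNA, KMT2C siRNA 1 and KMT2C siRNA 2; each panel has its own axis from 0. E2F2, CCNE2 and RRM2 are low under siRNA 2, ORC1 and TYMS are high under siRNA 1, and E2F3 and PRIM1 are highest under siRNA 2.

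Since E2F factors are known for the genes of S phase, the promoters of the members were searched for 4 E2F-type motifs, TTTCCCGC, TTTGGCGC, TTTCGCGC and TTTGCCGC, on both strands. The windows run from 250 bases before to 50 bases after the start site and come from RefSeq (GRCh38.p14). Of the 50 genes 42 had a window, and MCM4, MCM5, GINS4, RPA2, RPA3, POLD3, CDK2 and CCNE2 had none. A motif was found in 22 of the 42 (52.4%), against 7% of 8926 genes tested that had a window and 3.99% of all 27305 genes with one. Among the 28 members that were higher under siRNA 1 than under siRNA 2 it was found in 16 (57.1%), and among the other 14 in 6 (42.9%). Counting only the bases before the start site, a motif was found in 16 of the 42 members (38.1%), against 5.95% of the genes tested. CCAAT, searched on both strands as a common promoter motif, was in 61.9% of the members' windows by gene, against 43.9% of the genes tested. A match is a description of the letters and not a bound site. The sequences below come from 4 genes whose values differed between the siRNAs. Each is the longest stretch before the start site without an annotated exon, and capitals mark the motifs found. MCM6 (chr2:135876444-135876693, minus strand) is shown for its 4 matches, which overlap in pairs as TTTGGCGC and GCGCGAAA, the reverse complement of TTTCGCGC. E2F2 (chr1:23531234-23531483, minus strand) and E2F3 (chr6:20401629-20401878, plus strand) are shown because they moved in opposite directions under siRNA 2, and PCNA (chr20:5126627-5126785, minus strand) because it was the member with the highest level.
MCM6: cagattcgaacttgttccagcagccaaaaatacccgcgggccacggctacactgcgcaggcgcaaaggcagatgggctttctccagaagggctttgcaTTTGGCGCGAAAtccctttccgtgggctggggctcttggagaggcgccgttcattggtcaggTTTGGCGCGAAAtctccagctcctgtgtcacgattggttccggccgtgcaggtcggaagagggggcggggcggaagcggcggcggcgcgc
E2F2: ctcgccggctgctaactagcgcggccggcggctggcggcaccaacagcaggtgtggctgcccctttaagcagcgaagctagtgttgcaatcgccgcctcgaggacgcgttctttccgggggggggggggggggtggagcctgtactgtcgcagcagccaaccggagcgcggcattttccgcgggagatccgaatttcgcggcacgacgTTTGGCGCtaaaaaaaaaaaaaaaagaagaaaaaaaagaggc
E2F3: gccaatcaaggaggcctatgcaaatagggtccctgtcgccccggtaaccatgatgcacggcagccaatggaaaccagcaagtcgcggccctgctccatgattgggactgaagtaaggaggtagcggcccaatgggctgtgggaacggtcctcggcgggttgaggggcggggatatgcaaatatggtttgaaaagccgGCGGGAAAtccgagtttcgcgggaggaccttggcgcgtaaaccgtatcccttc
PCNA: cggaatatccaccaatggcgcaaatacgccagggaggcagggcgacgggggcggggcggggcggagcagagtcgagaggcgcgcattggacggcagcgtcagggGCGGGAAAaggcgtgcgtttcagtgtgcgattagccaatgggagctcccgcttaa
E2F2 and E2F3 thus each held 1 match, TTTGGCGC in E2F2 and GCGGGAAA, the reverse complement of TTTCCCGC, in E2F3. PCNA held GCGGGAAA as well. E2F3 and PCNA each had another window too, and no match was found in it.

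The genes of origin recognition and licensing were the group with the most rises under siRNA 1: 4 of 5 rose, where 21.2% of all genes tested did. With siRNA 2, CDC6 fell. All 5 were higher under siRNA 1 than under siRNA 2, where 20.6% of all genes tested were. ORC1, the largest subunit of the origin recognition complex (ENSG00000085840, GRCh38 chromosome 1, 52372829 to 52404423, minus strand), was at 4.88, 4.27 and 3.78 FPKM in control libraries, 6.86, 8.24 and 7.505 under siRNA 1 and 4.24, 4.12 and 3.84 under siRNA 2. It rose by 0.78 ± 0.11 under siRNA 1 (1.72-fold, adjusted p = 0.000612), with -0.14 ± 0.11 for siRNA 2 (adjusted p = 0.319), and its siRNA 1 libraries stood above all others. CDC6, the loading ATPase (ENSG00000094804, GRCh38 chromosome 17, 40287879 to 40304657, plus strand), was at 12.1, 10.7 and 9.49 FPKM in control libraries, 15.7, 12.8 and 15.6 under siRNA 1 and 8.08, 7.16 and 7.37 under siRNA 2. It rose by 0.43 ± 0.11 under siRNA 1 (adjusted p = 0.0147) and fell by 0.57 ± 0.11 under siRNA 2 (adjusted p = 0.00292). The 3 groups did not overlap, and the siRNAs differed 1.99-fold (adjusted p = 0.000205). ORC6, the smallest origin recognition subunit, was at 4.87, 5.23 and 4.89 FPKM in control libraries, 6.61, 5.81 and 6.797 under siRNA 1 and 5.004, 3.83 and 4.601 under siRNA 2, and rose by 0.33 ± 0.12 under siRNA 1 (adjusted p = 0.0481). DTL, which directs the degradation of CDT1, was at 5.65, 5.82 and 4.38 FPKM in control libraries, 7.38, 8.24 and 7.22 under siRNA 1 and 6.70, 5.28 and 4.57 under siRNA 2, and rose by 0.50 ± 0.16 under siRNA 1 (adjusted p = 0.0306). CDT1, the partner of CDC6 in loading, was at 6.05, 5.35 and 5.47 FPKM in control libraries, 6.23, 6.32 and 6.79 under siRNA 1 and 5.95, 5.26 and 4.82 under siRNA 2. It differed between the siRNAs by 0.30 ± 0.10 (adjusted p = 0.0382) and passed neither test against control.

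Several of these calls change with single libraries or with the processing. CDC6 under siRNA 1 missed the threshold without control replicate 3 (0.35, adjusted p = 0.0504) or siRNA 1 replicate 3 (0.38, adjusted p = 0.0528). ORC6 under siRNA 1 missed it without any control replicate, siRNA 1 replicate 1 or 3 or siRNA 2 replicate 3 (0.29 to 0.37, adjusted p 0.0655 to 0.127). With all libraries it also missed it with DESeq2-type size factors, without mitochondrial genes, without a filter on low values and with edgeR's own filter (0.32 to 0.34, adjusted p 0.053 to 0.0881). Under siRNA 1, DTL missed it without control replicate 1 or 3 or any siRNA 1 replicate (0.39 to 0.54, adjusted p 0.0521 to 0.0932). Between the siRNAs, CDT1 missed it without control replicate 2 or 3, any siRNA 1 replicate or siRNA 2 replicate 2 or 3 (0.24 to 0.32), and with upper-quartile scaling, no filter or the 2 groups alone (0.25 to 0.34). DTL missed it there without any siRNA 1 replicate or siRNA 2 replicate 2 or 3 (0.38 to 0.54).

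The replicative helicase MCM2-7 is a ring of 6 different subunits. With siRNA 2, 4 of its 6 genes fell, where 24.9% of all genes tested did. With siRNA 1 the 6 genes had values between -0.06 and 0.19 on the log2 scale, and the lowest adjusted p was 0.0569 (MCM7). MCM5 (ENSG00000100297, GRCh38 chromosome 22, 35400134 to 35424501, plus strand) was at 11.7, 10.9 and 11.4 FPKM in control libraries, 10.5, 11.3 and 11.4 under siRNA 1 and 8.57, 8.697 and 8.15 under siRNA 2, and fell by 0.48 ± 0.06 under siRNA 2 (adjusted p = 0.000155). MCM2 was at 24.6, 22.8 and 26.1 FPKM in control libraries, 24.8, 29.9 and 28.4 under siRNA 1 and 19.5, 18.6 and 18.4 under siRNA 2, and fell by 0.44 ± 0.08 (adjusted p = 0.00179). In both genes the siRNA 2 libraries were below all controls, and the siRNA 1 libraries overlapped with them. MCM2 shares 22.7% of its exon bases with AC023593.1 on the other strand, which was at 1.16 FPKM in control cells. MCM4 was at 33.96, 37.2 and 31.9 FPKM in control libraries, 31.6, 37.5 and 37.3 under siRNA 1 and 27.4, 24.9 and 27.2 under siRNA 2, and fell by 0.43 ± 0.09 (adjusted p = 0.00299). MCM6, whose promoter is printed above, was at 18.1, 19.2 and 17.1 FPKM in control libraries, 18.99, 18.9 and 20.5 under siRNA 1 and 14.6, 14.2 and 13.8 under siRNA 2, and fell by 0.41 ± 0.07 (adjusted p = 0.00094). These 4 subunits were thus lower by a similar amount, between 0.41 and 0.48 on the log2 scale. MCM3 and MCM7 passed no test in the main fit. With upper-quartile scaling or limma MCM7 passed it under both siRNAs. MCM3 had 0.15 ± 0.08 for siRNA 1 and -0.04 ± 0.08 for siRNA 2. MCM7 was at 59.4, 63.7 and 55.99 FPKM in control libraries, 73.7, 68.7 and 65.9 under siRNA 1 and 66.7, 72.1 and 68.1 under siRNA 2, with 0.19 ± 0.07 and 0.15 ± 0.07 (adjusted p = 0.0569 and 0.108). Every library of both siRNAs was above the controls in MCM7, of whose exon bases 8.94% are shared with AP4M1 on the other strand. The range between MCM7 and MCM5 was 5.26-fold in control cells, 6.28-fold under siRNA 1 and 8.14-fold under siRNA 2.

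Of the 6 genes of helicase activation 2 rose under siRNA 1 and 2 fell under siRNA 2, shares near the 21.2% and 24.9% of all genes tested. Between the siRNAs, 4 of the 6 were higher under siRNA 1 and 0 lower, where 20.6% and 18.9% of all genes tested were. CDC45, which joins the active helicase (ENSG00000093009, GRCh38 chromosome 22, 19479457 to 19520612, plus strand), was at 11.5, 12.6 and 10.4 FPKM in control libraries, 20.2, 19.9 and 16.5 under siRNA 1 and 15.6, 15.1 and 13.1 under siRNA 2. It rose by 0.69 ± 0.11 under siRNA 1 (1.61-fold, adjusted p = 0.0015), and under siRNA 2 its libraries were also above the controls at 0.29 ± 0.11 (adjusted p = 0.0626). GINS3, a subunit of the 4-part GINS complex, was at 2.17, 2.67 and 2.503 FPKM in control libraries, 3.47, 3.58 and 3.35 under siRNA 1 and 1.66, 1.84 and 1.93 under siRNA 2. It rose by 0.47 ± 0.11 under siRNA 1 (adjusted p = 0.00792) and fell by 0.49 ± 0.11 under siRNA 2 (adjusted p = 0.00532), and none of the 3 groups overlapped. MCM10, which helps to start unwinding, was at 6.03, 6.09 and 5.26 FPKM in control libraries, 6.19, 6.11 and 7.33 under siRNA 1 and 3.79, 4.18 and 3.79 under siRNA 2, and fell by 0.62 ± 0.10 under siRNA 2 (adjusted p = 0.000871). GINS2 was at 3.18, 3.23 and 2.01 FPKM in control libraries, 3.95, 3.896 and 3.75 under siRNA 1 and 2.798, 3.02 and 2.32 under siRNA 2. Control replicate 3 was the lowest of its 9 libraries, and the gene differed between the siRNAs alone (0.54 ± 0.18, adjusted p = 0.0438). GINS1 and GINS4 passed none of the tests in the main fit. GINS1 had 0.02 ± 0.07 and -0.17 ± 0.07, and GINS4 had -0.20 ± 0.13 and -0.17 ± 0.13. Between the siRNAs, CDC45 missed the threshold without siRNA 1 replicate 1 or 2 or siRNA 2 replicate 3 (0.33 to 0.37), and GINS2 without control replicate 1 or any replicate of either siRNA (0.44 to 0.62). GINS2 also missed it with upper-quartile scaling, limma on log2(FPKM + 0.1) or no filter (0.49 to 0.58).

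The polymerase and primase genes moved in both directions. Polymerase alpha and primase form 1 complex of 4 subunits, which lays down the primers, and the 4 genes did not all move alike. POLA1, the catalytic subunit of polymerase alpha, was at 7.13, 7.12 and 6.41 FPKM in control libraries, 8.77, 8.63 and 8.51 under siRNA 1 and 6.34, 6.17 and 6.25 under siRNA 2. It rose by 0.30 ± 0.06 under siRNA 1 (adjusted p = 0.00442) and fell by 0.19 ± 0.06 under siRNA 2 (adjusted p = 0.0278). POLA2, its accessory subunit, was at 13.4, 12.6 and 12.2 FPKM in control libraries, 14.6, 16.4 and 15.4 under siRNA 1 and 12.1, 13.2 and 10.9 under siRNA 2, and rose by 0.26 ± 0.08 under siRNA 1 (adjusted p = 0.0244). With siRNA 2 POLA2 had -0.13 ± 0.08 (adjusted p = 0.188), the same sign as POLA1. For both polymerase alpha genes the siRNA 1 libraries were the 3 highest. On its own strand POLA2 shares 35.1% of its exon bases with AP000944.2, which was at 0.335 FPKM in control cells. PRIM1, the catalytic primase subunit (ENSG00000198056, GRCh38 chromosome 12, 56731296 to 56752374, minus strand), was at 7.77, 8.43 and 6.24 FPKM in control libraries, 6.28, 6.33 and 7.17 under siRNA 1 and 11.6, 12.6 and 11.9 under siRNA 2. It rose by 0.63 ± 0.12 under siRNA 2 (1.55-fold, adjusted p = 0.00193), with -0.20 ± 0.12 for siRNA 1 (adjusted p = 0.188). PRIM1 was thus the member with the largest difference in favour of siRNA 2 (-0.84 ± 0.12), and 5.42% of its exon bases are shared with HSD17B6 on the other strand, which rose by 0.79 under siRNA 1 and 0.70 under siRNA 2. On its own strand PRIM1 shares 14.9% of its exon bases with AC117378.1 (2.39 and -1.46 for siRNA 1 and siRNA 2, adjusted p = 0.434 and 0.635) and 1.35% with NACA (0.31 and 0.21, adjusted p = 0.0278 and 0.0972). PRIM2, the regulatory primase subunit, was at 3.404, 3.36 and 2.55 FPKM in control libraries, 2.14, 2.22 and 2.15 under siRNA 1 and 2.19, 2.198 and 2.49 under siRNA 2. It fell by 0.54 ± 0.12 under siRNA 1 (adjusted p = 0.00711) and by 0.49 ± 0.12 under siRNA 2 (adjusted p = 0.00872), and no siRNA library reached the lowest control. In control cells PRIM1 and POLA1 overlapped in level, and under siRNA 2 PRIM1 stood at 12.1 and POLA1 at 6.25 FPKM.

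Polymerase epsilon copies the leading strand and polymerase delta the lagging strand. POLE, the catalytic subunit of epsilon, was at 7.28, 7.42 and 6.73 FPKM in control libraries, 6.25, 7.16 and 6.698 under siRNA 1 and 8.24, 9.08 and 8.602 under siRNA 2. It rose by 0.22 ± 0.07 under siRNA 2 (adjusted p = 0.0225), and its siRNA 2 libraries were the 3 highest. POLD2 was at 40.2, 42.8 and 39.9 FPKM in control libraries, 62.1, 61.6 and 52.6 under siRNA 1 and 45.3, 52.1 and 50.9 under siRNA 2, and rose by 0.50 ± 0.09 under siRNA 1 (adjusted p = 0.00189). With siRNA 2 POLD2 was also above every control library, at 0.22 ± 0.09 (adjusted p = 0.0633). POLD3, another accessory subunit of delta, was at 7.23, 4.71 and 6.56 FPKM in control libraries, 6.88, 6.27 and 6.70 under siRNA 1 and 4.07, 4.096 and 5.003 under siRNA 2. It fell by 0.54 ± 0.15 under siRNA 2 (adjusted p = 0.0179), though control replicate 2 lay among the siRNA 2 libraries. The catalytic subunit gene POLD1 had 0.17 ± 0.07 and 0.12 ± 0.07 for siRNA 1 and siRNA 2. POLE2, the second subunit of epsilon, had 0.15 ± 0.13 and 0.04 ± 0.13. Neither gene passed a test in the main fit.

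Of the polymerase calls, some also depend on single libraries. POLA2 under siRNA 1 missed the threshold without control replicate 2 or 3 or siRNA 1 replicate 2 or 3 (0.23 to 0.26, adjusted p 0.0614 to 0.0749). POLA1 under siRNA 2 missed it without control replicate 1 or 2 or any siRNA 2 replicate (-0.21 to -0.16), and with upper-quartile scaling or limma (-0.14 to -0.10). POLE under siRNA 2 missed it without control replicate 1 or 3 or siRNA 2 replicate 2 or 3 (0.18 to 0.22), and with no filter or edgeR's own (0.17 to 0.19). POLD3 missed it without control replicate 1 or 3 or siRNA 2 replicate 1 or 2 (-0.49 to -0.43). The difference of POLD2 between the siRNAs (0.28 ± 0.09, adjusted p = 0.0289) missed it without siRNA 1 replicate 1 or 2 or siRNA 2 replicate 1 or 3 (0.22 to 0.30), and with upper-quartile scaling or the 2 groups alone (0.23 to 0.27).

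PCNA is the ring that holds the polymerases on DNA, and the RFC proteins load it. PCNA (ENSG00000132646, GRCh38 chromosome 20, 5114953 to 5126626, minus strand) was at 135.6, 137.4 and 124.8 FPKM in control libraries, 176.3, 152.2 and 149 under siRNA 1 and 104.5, 106.6 and 100.5 under siRNA 2. It rose by 0.24 ± 0.08 under siRNA 1 (adjusted p = 0.0383) and fell by 0.41 ± 0.08 under siRNA 2 (adjusted p = 0.00271), and the 3 groups did not overlap. The rise was 0.15 without siRNA 1 replicate 1, the highest library, and it missed the threshold without any 1 library other than siRNA 1 replicate 2 or 3 (0.15 to 0.27, adjusted p 0.0518 to 0.114), or with no filter, edgeR's own filter or the 2 groups alone (0.23 to 0.25). RFC3 was at 7.88, 8.66 and 6.92 FPKM in control libraries, 11.1, 10.6 and 10.9 under siRNA 1 and 7.85, 7.62 and 7.80 under siRNA 2, and rose by 0.45 ± 0.09 under siRNA 1 (adjusted p = 0.00446). The other small loader subunits passed no test in the main fit. RFC2 had 0.33 ± 0.18 and -0.06 ± 0.18, and siRNA 2 replicate 3 was at 19.8 FPKM against 12.7 and 12.3 in the other 2 siRNA 2 libraries. RFC4 had -0.24 ± 0.17 and -0.05 ± 0.17, and RFC5 had -0.02 ± 0.08 and -0.14 ± 0.08. RFC5 shares 5.72% of its exon bases with WSB2 on the other strand, which was at 71.5 FPKM in control cells. WSB2 had -1.06 for siRNA 1 and -1.36 for siRNA 2. RFC4 shares 0.701% of its exon bases with EIF4A2 on the other strand, which was at 52.9 FPKM in control cells. FEN1, the nuclease that trims Okazaki fragments, was at 31.2, 33.02 and 31.8 FPKM in control libraries, 35.8, 32.4 and 31.2 under siRNA 1 and 25.6, 25.6 and 24.8 under siRNA 2, and fell by 0.40 ± 0.07 under siRNA 2 (adjusted p = 0.00177). LIG1, the ligase that joins them, was at 7.397, 8.05 and 7.099 FPKM in control libraries, 8.54, 8.24 and 7.14 under siRNA 1 and 6.47, 7.14 and 6.68 under siRNA 2. It differed between the siRNAs by 0.27 ± 0.09 (adjusted p = 0.0408), which missed the threshold without control replicate 1 or 3 or any replicate of either siRNA but siRNA 1 replicate 3, and with upper-quartile scaling, limma, no filter or the 2 groups alone (0.21 to 0.31).

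Of the genes that bind single-stranded DNA or guard the fork, RPA1 fell with both siRNAs. RPA1 (ENSG00000132383, GRCh38 chromosome 17, 1829702 to 1900082, plus strand) was at 36.3, 34.9 and 35.4 FPKM in control libraries, 27.1, 27.6 and 28.4 under siRNA 1 and 33.3, 34.5 and 33.5 under siRNA 2. It fell by 0.38 ± 0.04 under siRNA 1 (1.3-fold, adjusted p = 0.000263) and by 0.13 ± 0.04 under siRNA 2 (adjusted p = 0.0407). The libraries of the 3 groups did not overlap and varied little. The fall under siRNA 2 was small: it missed the threshold without any library but siRNA 1 replicate 1 or 3 (-0.14 to -0.12), and with upper-quartile scaling, limma or no filter (-0.16 to -0.03). RPA2 had -0.02 ± 0.10 and -0.07 ± 0.10 and RPA3 had 0.19 ± 0.14 and -0.09 ± 0.14 for siRNA 1 and siRNA 2, and neither passed a test. CLSPN, claspin, a mediator of the replication checkpoint, was at 3.69, 4.46 and 2.85 FPKM in control libraries, 3.38, 3.16 and 3.53 under siRNA 1 and 2.25, 2.36 and 2.22 under siRNA 2. It fell by 0.74 ± 0.14 under siRNA 2 (1.67-fold, adjusted p = 0.00281). TIMELESS, a fork protection gene, was at 15.7, 15.4 and 14.8 FPKM in control libraries, 17.1, 21.4 and 21.7 under siRNA 1 and 14.9, 15.3 and 17.2 under siRNA 2, and rose by 0.36 ± 0.09 under siRNA 1 (adjusted p = 0.0141). Without siRNA 1 replicate 3 that rise was 0.30 (adjusted p = 0.0519).

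The 4 nucleotide synthesis genes were all higher under siRNA 1 than under siRNA 2, where 20.6% of all genes tested were. The median difference of the 4 was 0.74. RRM2, the regulated subunit of ribonucleotide reductase (ENSG00000171848, GRCh38 chromosome 2, 10120698 to 10210597, plus strand), had the largest difference among the 50. It was at 10.7, 11.2 and 10.2 FPKM in control libraries, 6.49, 14.4 and 12.7 under siRNA 1 and 4.53, 4.05 and 4.14 under siRNA 2. It fell by 1.39 ± 0.24 under siRNA 2 (2.62-fold, adjusted p = 0.00146), with 0.03 ± 0.24 for siRNA 1, where replicate 1 was below every control library and replicates 2 and 3 above. The table gives RRM2 a longer span than the GENCODE annotation, which ends it at 10131419. On its own strand RRM2 shares 20.2% of its exon bases with AC007240.1, for which no level was given. RRM1, the other reductase subunit, was at 32.5, 35.3 and 33.1 FPKM in control libraries, 41.9, 38.1 and 40.7 under siRNA 1 and 31.99, 30.4 and 33.5 under siRNA 2, and rose by 0.23 ± 0.07 under siRNA 1 (adjusted p = 0.0268). That rise missed the threshold without control replicate 1 or 3 or siRNA 1 replicate 1 or 3 (0.19 to 0.23, adjusted p 0.0628 to 0.0906), and with no filter, edgeR's own filter or the 2 groups alone (0.22 to 0.24). The ratio of RRM1 to RRM2 in mean FPKM was 3.13 in control cells, 3.59 under siRNA 1 and 7.53 under siRNA 2. TYMS, thymidylate synthase (ENSG00000176890, GRCh38 chromosome 18, 657653 to 673578, plus strand), was at 16.5, 17.1 and 13.9 FPKM in control libraries, 28.3, 26.1 and 25.2 under siRNA 1 and 14.96, 14.5 and 13.5 under siRNA 2. It rose by 0.72 ± 0.09 under siRNA 1 (1.65-fold, adjusted p = 0.000453), with -0.20 ± 0.09 for siRNA 2 (adjusted p = 0.111). ENOSF1 shares 39.1% of the exon bases of TYMS on the other strand, was at 2.88 FPKM in control cells, and rose by 0.73 under siRNA 1 and 0.44 under siRNA 2. In the shared bases, reads of the 2 genes cannot be told apart if the counting did not use strand. TK1, the S phase thymidine kinase, was at 44.1, 37.8 and 38.4 FPKM in control libraries, 40.8, 37.2 and 34.9 under siRNA 1 and 31.8, 22.6 and 23.9 under siRNA 2, and fell by 0.68 ± 0.13 under siRNA 2 (adjusted p = 0.00307). All siRNA 2 libraries of TK1 were below the controls, with replicate 1 the nearest to them.

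CHAF1A and CHAF1B encode the large and the middle subunit of CAF-1, which places histones on newly made DNA. CHAF1B was at 9.12, 9.31 and 8.82 FPKM in control libraries, 10.8, 9.83 and 10.5 under siRNA 1 and 6.78, 6.52 and 7.13 under siRNA 2, and fell by 0.47 ± 0.07 under siRNA 2 (adjusted p = 0.000586). CHAF1A was at 17.9, 17.9 and 17.5 FPKM in control libraries, 20.6, 18.2 and 18.04 under siRNA 1 and 15.5, 16.3 and 15.7 under siRNA 2, and fell by 0.22 ± 0.07 (adjusted p = 0.0264). In both genes the siRNA 1 libraries were above and the siRNA 2 libraries below every control library. Neither passed the test under siRNA 1 in the main fit (0.17 ± 0.07 and 0.07 ± 0.07). The fall of CHAF1A missed the threshold without any 1 control or siRNA 2 library (-0.24 to -0.21, adjusted p 0.0511 to 0.0805), and with upper-quartile scaling or limma (-0.16 to -0.12, adjusted p 0.059 to 0.184). CHAF1B shares 1.74% of its exon bases with MORC3 on its own strand (-0.59 and -1.13 for siRNA 1 and siRNA 2).

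The genes not called between the siRNAs were MCM3, MCM7, GINS1, GINS4, PRIM2, POLE2, POLD1, RFC2, RFC4, RFC5, RPA2, RPA3 and CCNE1. CCNE1 had the largest difference among these 13, at 0.49 ± 0.21 (adjusted p = 0.0958), and RPA1 the smallest among those called. A p that misses the threshold does not show that these genes were alike with both siRNAs.

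Genes near the members in the pathway were read from lists of other genes. Of 33 other replication genes tested, 7 were higher and 2 lower under siRNA 1 than under siRNA 2, against 20.6% and 18.9% of all genes tested, and the median was 0.01. TOPBP1, which helps to activate the helicase and the ATR kinase, was at 13.6, 13.2 and 12.1 FPKM in control libraries, 11.8, 13.2 and 12.8 under siRNA 1 and 5.85, 5.54 and 6.04 under siRNA 2. It fell by 1.21 ± 0.07 under siRNA 2 (adjusted p = 2.41e-06), and its siRNA 2 libraries were the lowest 3 by a wide gap. EXO1, an exonuclease, rose by 0.32 ± 0.09 under siRNA 1 and fell by 0.69 ± 0.09 under siRNA 2. The kinase gene CDC7, which triggers origin firing, fell by 0.28 ± 0.09 and 0.81 ± 0.09. SUPT16H, a subunit of the histone chaperone FACT, rose by 0.73 ± 0.07 under siRNA 1 and 0.51 ± 0.07 under siRNA 2, and RFC1, the large clamp loader subunit, was lower under siRNA 1 than under siRNA 2 by 0.40 ± 0.07.

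Of 24 further nucleotide genes 9 were higher (37.5%) and 2 lower (8.33%) under siRNA 1 than under siRNA 2 (median 0.24), where 20.6% and 18.9% of all genes tested were. Against control, 13 of the 24 rose and 1 fell under siRNA 1 (21.2% and 20.5% of all genes tested), and 8 rose and 3 fell under siRNA 2 (24.4% and 24.9%). SHMT1, the cytosolic enzyme that feeds thymidylate synthesis, rose by 0.31 ± 0.07 under siRNA 1 and fell by 1.13 ± 0.08 under siRNA 2, while its mitochondrial counterpart SHMT2 rose by 0.80 ± 0.14 under siRNA 2, with -0.01 ± 0.14 for siRNA 1. The guanine nucleotide enzyme GMPS rose by 0.33 ± 0.05 and fell by 0.39 ± 0.05 in the same order. Among 13 genes of chromatin assembly and maintenance 7 (53.8%) were higher under siRNA 1 than under siRNA 2 (median 0.34). RBBP4, the small CAF-1 subunit, fell by 0.63 ± 0.10 under siRNA 2, with 0.18 ± 0.10 for siRNA 1, and the maintenance methyltransferase gene DNMT1 fell by 0.47 ± 0.07 under siRNA 2, with -0.01 ± 0.07 for siRNA 1. CDCA7 rose by 1.03 ± 0.10 under siRNA 1 and 0.40 ± 0.10 under siRNA 2.

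Among 29 tested genes of E2F, DP and retinoblastoma control, 9 were higher (31%) and 5 lower (17.2%) under siRNA 1 than under siRNA 2 (median 0.04). The shares over all genes tested were 20.6% and 18.9%. TFDP1, the DNA binding partner of the E2F factors, rose by 0.64 ± 0.08 under siRNA 1, with -0.01 ± 0.08 for siRNA 2. MYBL2, a transcription factor of cycling cells, rose by 0.44 ± 0.06 under siRNA 1 and fell by 0.57 ± 0.06 under siRNA 2. Of the 7 inhibitor genes of cyclin-dependent kinases in this list, 4 fell and 1 rose under each siRNA, but not the same ones: CDKN1B, CDKN1C, CDKN2B and CDKN2D fell and CDKN2A rose under siRNA 1, and CDKN1A, CDKN1B, CDKN2C and CDKN2D fell and CDKN1C rose under siRNA 2. These 7 were grouped after their values were seen. Over all genes tested, 20.5% fell and 21.2% rose under siRNA 1, and 24.9% fell and 24.4% rose under siRNA 2. CDKN2D was at 16.4, 16.7 and 13.6 FPKM in control libraries, 11.6, 10.8 and 8.34 under siRNA 1 and 2.49, 2.16 and 2.08 under siRNA 2, and it fell by 0.62 ± 0.15 and fell by 2.85 ± 0.16 in that order. CDKN1A, p21, fell by 1.99 ± 0.17 under siRNA 2, with -0.39 ± 0.16 for siRNA 1, and CDKN2C fell under siRNA 2 from a mean of 13.9 to 6.75 FPKM, with 14.4 FPKM under siRNA 1. CDKN2B fell by 2.82 ± 0.27 under siRNA 1, with 0.10 ± 0.25 for siRNA 2. CDKN1C fell by 1.84 ± 0.23 under siRNA 1 and rose by 0.65 ± 0.22 under siRNA 2, and CDKN2A rose by 1.21 ± 0.20 under siRNA 1, with 0.50 ± 0.20 for siRNA 2. CCND1, cyclin D1, fell by 0.64 ± 0.06 and 0.82 ± 0.06.

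The checkpoint list was mixed, and more of the G2 and mitosis list was lower than higher under siRNA 1 compared with siRNA 2. Of 14 replication checkpoint genes 5 were higher (35.7%) and 3 lower (21.4%) under siRNA 1 than under siRNA 2 (median 0.10). CDC25B, a phosphatase that activates cyclin-dependent kinases, fell by 0.55 ± 0.14 under siRNA 1 and 1.55 ± 0.14 under siRNA 2, and CDC25C, of the same family, fell by 0.62 ± 0.13 under siRNA 1, with -0.04 ± 0.13 for siRNA 2. Of 30 G2 and mitosis genes 3 were higher (10%) and 14 lower (46.7%) under siRNA 1 than under siRNA 2 (median -0.21), against 20.6% and 18.9% of all genes tested. Against control, 4 of the 30 rose (13.3%) and 9 fell (30%) under siRNA 1, where 21.2% and 20.5% of all genes tested did. Under siRNA 2, 11 rose (36.7%) and 3 fell (10%), where 24.4% and 24.9% did. HMMR, a spindle gene, was at 6.99, 7.16 and 5.67 FPKM in control libraries, 6.81, 5.62 and 6.11 under siRNA 1 and 15.9, 14.3 and 14.98 under siRNA 2, and rose by 1.13 ± 0.11 under siRNA 2 (adjusted p = 6.14e-05). KIF2C, a kinesin of the centromere, fell by 0.60 ± 0.07 under siRNA 1 and rose by 0.41 ± 0.07 under siRNA 2. The 3 genes higher under siRNA 1 were FOXM1, MKI67 and AURKB. FOXM1, a transcription factor of G2 genes, fell by 0.89 ± 0.17 under siRNA 2, and the proliferation marker MKI67 fell by 0.78 ± 0.23 under siRNA 2 (adjusted p = 0.0214). MKI67 was at 49.4, 28.2 and 27.03 FPKM in control libraries and at 19.2, 25.6 and 18.3 under siRNA 2. Control replicate 1 stood far above the other controls, and a fit of MKI67 without it is not given here.

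**Figure D4:**
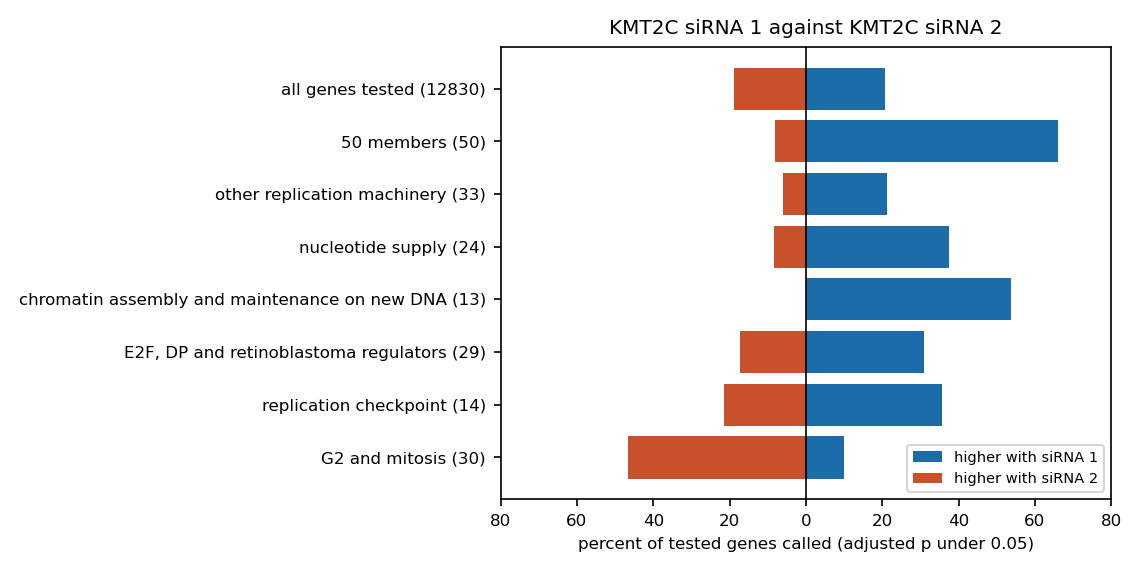
Percent of the tested genes of each list (number tested in brackets; "50 members" are the DNA replication and G1/S genes) with an adjusted p under 0.05 for KMT2C siRNA 1 against KMT2C siRNA 2; bars to the right are genes higher under siRNA 1 and bars to the left genes higher under siRNA 2. The 50 genes stand at 66% and 8%, all genes tested at 20.6% and 18.9%, and the G2 and mitosis genes at 10% and 46.7%.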

How the data were processed

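RNA from 9 VCaP libraries (3 with control siRNA, 3 with each of 2 KMT2C siRNAs) was sequenced on an Illumina NovaSeq, per the labels' protocols. The deposited table gives, per the file headers, a count and an FPKM value per gene and library. The counts were taken as estimated counts made and deposited by the authors, with the column type per the file headers: rounding changed 0 values, but values of 4, 8 and 12 are over-represented, so 1 fragment may stand for about 4 counts and counting error is larger than the totals imply. The FPKM values were used as the authors deposited them. Bowtie 0.12.2 is named without a role in the submitters' processing notes, with the builds hg38 and mm8; the sources used here do not give the counting tool, its use of strand or the annotation. Of 60612 gene IDs 58394 were in GENCODE release 29 on GRCh38, where 72.7% had the same start and end and 99.96% overlapped, so coordinates are GRCh38. The series' design text names retinal RNA, whereas the sample labels name VCaP, and the epithelial markers were expressed.

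The 12830 genes reaching 1 FPKM in 3 or more libraries entered 1 fit over all 9 libraries with edgeR 4.0.16 (R 4.3.3): TMM scaling, quasi-likelihood F test, two-sided, Benjamini-Hochberg adjustment at 0.05. This fit is called the main fit. The contrast of siRNA 1 with siRNA 2 tests the difference between their effects. Alternatives were 2 other scalings, no mitochondrial genes, DESeq2 1.42.0, limma 3.58.1 on log2(FPKM + 1) and log2(FPKM + 0.1), 2 other filters, 2-group fits, a replicate block and leaving out each library. The test was run on simulated data with known changes under siRNA 1. It called 11.9% of genes changed by 0.5 on the log2 scale, 65.7% of those changed by 1 and 92.4% of those changed by 2. Only 67, 67 and 66 of 12830 genes were changed there, a far smaller share than was called here, so these rates do not carry over directly. Groups came from the sample labels, and totals per library ranged from 58462215 to 70726213. All 50 members are named, with every library's value where a test was passed; of each other list the genes named are among the 3 per contrast and direction with the lowest adjusted p. The members and lists were chosen with earlier results of these data known, so their counts are descriptions beside those of all genes. Exon overlaps with neighbouring genes are given for some members only. The main fit did not pair libraries by replicate number, since same-numbered libraries showed no clear shared signal.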

Additional observations from a re-analysis of the deposited data

Results flagged for a closer look

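The effects of the 2 siRNAs differed by the test of the difference itself (edgeR, adjusted p under 0.05) in 37 members. Values are log2 differences, siRNA 1 minus siRNA 2, in order of role. Both effects are measured against the same control libraries, which cancel in this difference. In the helicase they were MCM2 at 0.58, MCM4 at 0.45, MCM5 at 0.41 and MCM6 at 0.48. Licensing genes were ORC1 at 0.92, ORC6 at 0.55, CDC6 at 0.99, CDT1 at 0.30 and DTL at 0.49. Helicase activation genes were CDC45 at 0.40, GINS2 at 0.54, GINS3 at 0.96 and MCM10 at 0.77. Among polymerase and primase genes POLA1 was at 0.50, POLA2 at 0.39, POLD2 at 0.28 and POLD3 at 0.62, whereas PRIM1 was at -0.84 and POLE at -0.34. On the lagging strand PCNA was at 0.65, RFC3 at 0.52, FEN1 at 0.42 and LIG1 at 0.27. Fork genes were TIMELESS at 0.38, CLSPN at 0.59 and, in the other direction, RPA1 at -0.26. For nucleotide synthesis RRM1 was at 0.36, RRM2 at 1.43, TYMS at 0.92 and TK1 at 0.56. The CAF-1 genes CHAF1A and CHAF1B were at 0.29 and 0.64. Of the regulators, E2F1 was at 0.31, E2F2 at 1.06, CCNE2 at 0.85 and CDK2 at 0.53, whereas E2F3 was at -0.53.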

How the results depend on the processing

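No member changed direction in any alternative where it had been called. Of the members called, 10 of 17 with siRNA 1, 20 of 26 with siRNA 2 and 31 of 37 between the siRNAs passed the test in every alternative. Calls were also gained: 9 further members with siRNA 1, 8 with siRNA 2 and 4 between the siRNAs passed it in at least 1 alternative. Leaving out 1 library at a time gave 11 to 16 members called with siRNA 1 (11 without siRNA 1 replicate 3), of which 9 to 14 higher. The same gave 20 to 29 called with siRNA 2, of which 2 to 5 higher, and 32 to 36 called between the siRNAs. Upper-quartile scaling and limma on log2(FPKM + 1) or log2(FPKM + 0.1) each gave 7 members higher with siRNA 2, rather than 3. The cause was not tested. The pseudocount of 1 shrank low genes under limma, with GINS3 at -0.29, PRIM2 at -0.31 and CCNE1 at -0.41 for siRNA 2. Libraries with the same replicate number showed no clear shared signal: correlations of their deviations from their group means were -0.069 to 0.039 over 9 pairs. Such values cannot show whether these libraries were made together. With the replicate block 16, 26 and 37 members were called in the 3 comparisons, against 17, 26 and 37 without it, and 5007, 6070 and 4766 of all genes, against 5349, 6328 and 5068; ORC6 and RRM1 (siRNA 1), RPA1 (siRNA 2) and CDT1 (between the siRNAs) missed the threshold with it. Precision is limited by 3 libraries per group in 1 cell line and, for low genes such as CCNE1, by few fragments.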

Other observations

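Further genes of the other lists, named by the rule of the lowest adjusted p, are given as log2 values for siRNA 1 and then siRNA 2 against control. Among other replication genes, the origin recognition gene ORC5 had 0.33 and 0.45, POLE3, a histone-fold subunit of polymerase epsilon, 0.45 and 0.46, and DSCC1, of the alternative clamp loader, 0.57 and 0.68. CHTF18, of the same loader, had -0.23 and 0.30. The fork gene DONSON had -0.42 and -0.54, and the CDC7 activators DBF4 and DBF4B had -0.31 and -0.17, and -0.43 and -0.32. Purine genes were IMPDH2 at 0.66 and 0.24 and GART at 0.40 and 0.30. The pyrimidine enzyme gene CAD had 0.48 and 0.68, the kinase genes NME1 0.69 and 0.60, NME2 0.46 and -0.16 and DCK -0.04 and 0.46. RRM2B, the p53-induced reductase subunit gene, had -0.25 and -0.40.

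In chromatin assembly the kinase genes TLK1 and TLK2 differed in sign, with -0.28 and -0.53 for TLK1 and 0.53 and 0.60 for TLK2. The value of TLK1 for siRNA 1 missed the threshold (adjusted p = 0.0569). RBBP7 had 0.30 and -0.03, and the histone chaperone gene ASF1A 0.23 and 0.28. The inhibitor gene CDKN1B had -0.56 and -0.67. The ubiquitin ligase genes FBXW7 and SKP2 had 0.34 and 0.60, and 0.36 and 0.38, and TFDP2 had -0.16 and 0.20. Checkpoint genes were ATR at 0.26 and 0.24, its activator ETAA1 at 0.42 and 0.34 and CHEK2 at 0.40 and 0.28. For the checkpoint clamp, RAD9A had -0.44 and -0.06, HUS1 -0.29 and -0.80, RAD1 -0.04 and -0.67, and its loader gene RAD17 -0.20 and 0.12. Mitotic genes were BIRC5 at 0.45 and 0.38, CCNB2 at 0.24 and 0.64, CENPF at 0.21 and 0.78, CDC20 at -0.46 and -0.09, ANLN at -0.61 and -0.00, PLK1 at -0.33 and -0.32 and BUB1 at -0.32 and 0.41.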
